A study of Mus musculus with 6 samples.

Results

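The genes described here are 10 regulators and cadherins of neural crest delamination and migration, namely Snai1, Snai2, Twist1, Twist2, Zeb1, Zeb2, Cdh1, Cdh2, Cdh6 and Cdh11. They were chosen by name, from 21776 protein-coding genes of a mouse RefSeq table (GRCm38.p6, the assembly of mm10). A peak was given to a gene when it lay within 1 kb of either end of the gene (at a boundary), elsewhere in its body, or outside it with that gene as the nearest protein-coding gene within 100 kb. Chromatin immunoprecipitation with sequencing (ChIP-seq) of CHD7, a chromatin remodelling ATPase, and of H3K27ac, the acetylated histone mark of active promoters and enhancers, had been performed on the cardiac neural crest of E10.5 mouse embryos, with input chromatin as background. Male Wnt1-Cre2 mice, whose Cre marks the neural crest lineage and also the dorsal neural tube, had been crossed with mTmG reporter females. The GFP-positive cells of pharyngeal arches 3 to 6 were sorted, and all 6 libraries came from such cells, without a mutant or treated group. CHD7, H3K27ac and input had 2 libraries each. The labels do not say whether the libraries of a group came from separate litters, so their spread may be technical.

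Snail and Zeb proteins are zinc finger repressors that bind E-boxes and silence epithelial genes, above all Cdh1, the gene of E-cadherin. Twist proteins are basic helix-loop-helix factors that bind E-boxes as dimers and act in the same programme and in crest-derived mesenchyme. Crest cells that leave the neural tube change their cadherins, the calcium-dependent adhesion receptors of cell junctions: Cdh2 encodes N-cadherin of the neural epithelium, Cdh6 a cadherin of premigratory crest and Cdh11 a cadherin of migratory and mesenchymal cells.

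Regions where peaks of both libraries of an antibody overlapped numbered 22 for CHD7 and 15 for H3K27ac at these genes, of 19947 and 17756 in the genome. The promoter table gave start sites for 5 of the 10 genes (Snai1, Twist1, Twist2, Zeb2 and Cdh6). Among these, CHD7 lay within 1 kb of a start at Zeb2 and Cdh6 (2 of 5), against 45.4% of the 17492 protein-coding genes with a listed start. H3K27ac lay within 1 kb of a start at 4 of the 5, all but Snai1, against 49.7% of such genes. The 250 bases before the start are shown for 4 genes that differ in this respect: Zeb2, whose start a CHD7 region covered; Cdh6, whose CHD7 and H3K27ac regions ended just inside the start; Twist1, with H3K27ac on both sides of the start; and Snai1, with neither mark at the start. The sequences are from RefSeq (GRCm38.p6), written 5′ to 3′ on the strand of the gene, with E-boxes (CANNTG, the same on both strands) in capitals. They lie at chr2:45117443-45117692 on the minus strand for Zeb2, chr15:13173676-13173925 on the minus strand for Cdh6, chr12:33957421-33957670 on the plus strand for Twist1 and chr2:167537945-167538194 on the plus strand for Snai1.
Zeb2: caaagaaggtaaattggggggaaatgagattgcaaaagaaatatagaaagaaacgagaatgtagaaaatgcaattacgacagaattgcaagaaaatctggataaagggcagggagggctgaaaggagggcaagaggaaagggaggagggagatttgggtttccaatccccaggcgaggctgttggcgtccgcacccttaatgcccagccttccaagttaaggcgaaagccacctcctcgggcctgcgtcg
Cdh6: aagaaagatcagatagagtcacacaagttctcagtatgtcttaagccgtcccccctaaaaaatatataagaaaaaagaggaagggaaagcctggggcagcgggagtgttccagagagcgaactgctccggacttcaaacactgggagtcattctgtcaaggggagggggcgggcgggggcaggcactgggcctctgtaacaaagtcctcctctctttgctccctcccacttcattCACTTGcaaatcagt
Twist1: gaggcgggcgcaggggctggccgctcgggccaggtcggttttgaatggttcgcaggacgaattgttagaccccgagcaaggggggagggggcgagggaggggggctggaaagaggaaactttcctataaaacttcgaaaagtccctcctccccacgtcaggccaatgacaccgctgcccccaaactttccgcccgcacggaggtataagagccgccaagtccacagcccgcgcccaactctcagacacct
Snai1: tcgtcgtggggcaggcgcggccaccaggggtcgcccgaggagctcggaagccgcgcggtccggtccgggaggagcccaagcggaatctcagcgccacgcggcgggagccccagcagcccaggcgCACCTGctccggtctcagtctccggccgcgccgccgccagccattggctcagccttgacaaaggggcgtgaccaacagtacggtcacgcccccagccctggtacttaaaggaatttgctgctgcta

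Snai1 held 1 E-box in this window, in the form CACCTG, which Snail and Zeb proteins bind (its other strand reads CAGGTG). Cdh6 held 1 E-box of another form, and Zeb2 and Twist1 held none in these 250 bases. Of 32851 promoter windows in the table, 66.2% held a CANNTG match and 17.2% a CACCTG match on either strand. The windows differed in CpG dinucleotides, with 27 in Snai1, 18 in Twist1, 9 in Zeb2 and 6 in Cdh6, where the median promoter held 6. The Snai1 window, with neither mark, was thus the richest of the 4 in CpG, and more CpG-rich than or equal to 92.4% of all promoters.

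A CHD7 region of both libraries lay at a boundary of 4 of the 10 genes, Snai1, Snai2, Zeb2 and Cdh2, against 44.2% of all protein-coding genes. Twist2 had a boundary peak in each CHD7 library, but these peaks did not overlap and formed no region. H3K27ac regions lay at a boundary of 7 of the 10 genes, Snai1, Twist1, Twist2, Zeb1, Zeb2, Cdh2 and Cdh11, against 47.6%. Both marks lay at a boundary of 3 genes, Snai1, Zeb2 and Cdh2, against 39.3% of all genes. Counted over boundary, body and flanks, CHD7 reached 9 of the 10 genes and H3K27ac 8, against 55.6% and 56.6% of all genes. Most of these genes are long, with a median length of 100.4 kb against 17.2 kb for all protein-coding genes. Snai1, Snai2 and Twist1 are short, at 4.62, 3.54 and 2.16 kb. The stretch from which the 10 genes could receive a region had a median of 224 kb, against 45.8 kb for all protein-coding genes. Per 100 kb of such stretch, the 10 genes held 0.981 CHD7 and 0.669 H3K27ac regions, against 0.965 and 0.896 over all genes. No input peak lay at any of the 10 genes in either input library. Such peaks are rare, given to 198 genes in input library 1 and 238 in library 2, of 21776 protein-coding genes. Their absence at 10 genes is therefore usual.

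**Figure D1:**
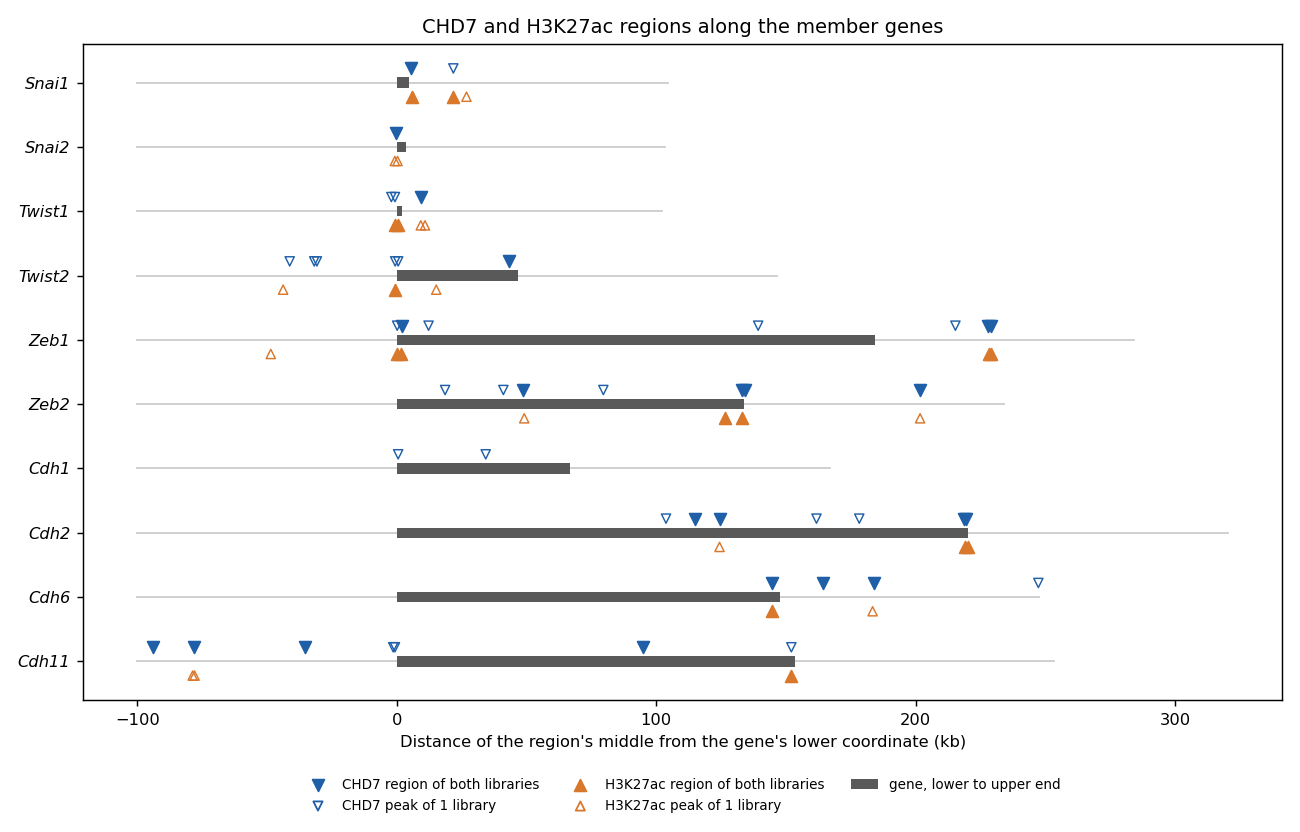
CHD7 (blue, above) and H3K27ac (orange, below) along the 10 genes, with distance in kb from the gene's lower coordinate on the horizontal axis. Filled triangles are regions of both libraries, open triangles peaks of 1 library, grey bars the genes and thin lines the flanks of 100 kb. Cdh1 has no filled triangle, and the filled triangles of Zeb1, Zeb2 and Cdh2 cluster at an end of the gene or at a few distant places.

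Both marks had low fold enrichment at these genes. Of the 22 CHD7 regions, 17 had a mean fold enrichment (the ratio of the authors' peak caller, averaged over libraries 1 and 2) below the median of all CHD7 regions, and the highest were those of Zeb1 and Cdh11 at or above 87.3% and 80.6% of all CHD7 regions. All 15 H3K27ac regions lay below the median of all H3K27ac regions. The median of the mean folds was 2.95 for CHD7 and 2.96 for H3K27ac at these genes, against 3.46 and 4.06 over all regions. At boundaries the medians were 2.77 and 2.94, against 3.58 and 4.46 for all boundary regions. A −log10 q (q being the false discovery rate of the peak caller) of at least 10 in both libraries was reached by 1 of the 22 CHD7 regions and by 0 of the 15 H3K27ac regions, against 15.9% and 40.2% of all regions. The folds of the libraries differed by a median SD of 0.284 over the CHD7 regions and 0.305 over the H3K27ac regions (n = 2 libraries each), so that small differences between regions are within the spread of the libraries.

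**Figure D2:**
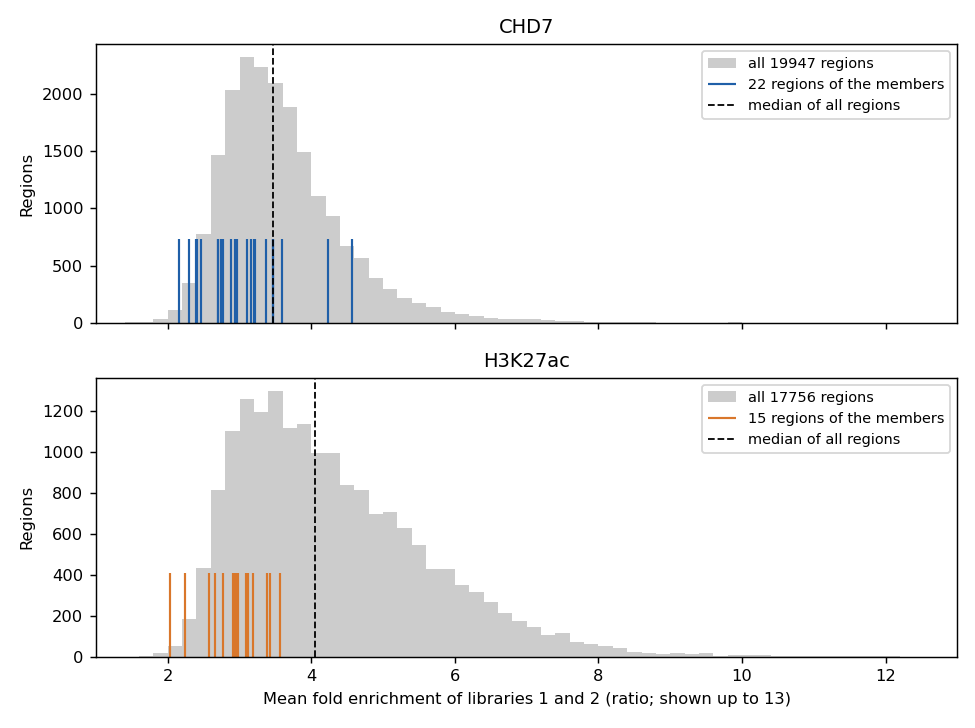
Mean fold enrichment of libraries 1 and 2 on the horizontal axis and the number of regions on the vertical axis, for all CHD7 regions (upper panel) and all H3K27ac regions (lower panel) in grey. Coloured lines mark the 22 and 15 regions of the 10 genes and dashed lines the medians of 3.46 and 4.06; all 15 H3K27ac lines stand left of the dashed line.

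Snai1 and Snai2, the Snail repressors, each carried CHD7 at a boundary, at different ends. At Snai1 (chr2:167538195-167542814, plus strand), the CHD7 region chr2:167543233-167544009 began 419 bp beyond the upper end, which is the 3′ end of the gene, 5038 bp from its start. Its folds were 2.41 in library 1 and 2.17 in library 2, and only 1.42% of CHD7 regions were as low or lower. An H3K27ac region overlapped it, chr2:167543734-167544152, with folds of 2.06 and 2.41. The other H3K27ac region given to Snai1 was stronger, chr2:167559420-167560131, 16.6 kb beyond the same end, with folds of 2.73 and 3.44. It overlapped Gm11476, a gene outside the protein-coding set. CHD7 was found there in library 2 (fold 3.08) and not in library 1. So the marks that count for the Snai1 boundary lay past the end of the transcribed unit, and no library had a peak within 1 kb of its start.

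Snai2 encodes Slug, the Snail protein of migrating crest in many vertebrates. Its CHD7 region chr16:14705143-14706303 covered the lower end of the gene (chr16:14705852-14709395), with folds of 3.49 and 2.94, at or above 36.4% of CHD7 regions. The peaks of the libraries were offset: library 1 had its peak at 14705473 to 14706303 and library 2 at 14705143 to 14705718. They shared 246 bp, 42.7% of the shorter peak, so that the region is lost where an overlap of 50% is required. Snai2 had no H3K27ac region of both libraries, but H3K27ac library 1 held 2 peaks over the CHD7 region, with folds of 3.26 (14704962 to 14705257) and 2.77 (14705992 to 14706287). H3K27ac library 2 held no peak at Snai2. The lack of H3K27ac there thus rests on 1 of the libraries.

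Twist1 and Twist2 had H3K27ac regions of both libraries near the start, and their CHD7 regions of both libraries lay elsewhere. CHD7 peaks that did not overlap between the libraries also lay within 1 kb of both starts. At Twist1 (chr12:33957671-33959831, plus strand), H3K27ac regions lay on both sides of the start. The upstream one, chr12:33956646-33957213, ended 458 bp before it with folds of 2.36 and 2.97, and the downstream one, chr12:33958035-33958477, began 364 bp after it with folds of 1.99 and 2.07. The latter was among the weakest in the genome, with 0.18% of H3K27ac regions as low or lower. CHD7 library 1 held a peak over the upstream region (fold 2.51), and CHD7 library 2 held none. The CHD7 region of both libraries was chr12:33966701-33967156, 6.87 kb beyond the upper end, with folds of 2.39 and 1.92, and H3K27ac library 1 held a peak over it (fold 2.79).

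At Twist2 (chr1:91801461-91848034, plus strand), the H3K27ac region chr1:91800082-91801114 ended 347 bp before the start, with folds of 3.32 and 2.60. Each CHD7 library had a peak near that start, but not at the same place: library 1 at 91801543 to 91802457, inside the gene (fold 2.74), and library 2 at 91800686 to 91800986, before it (fold 2.62). The library 2 peak overlapped H3K27ac and the library 1 peak did not. The CHD7 region of both libraries lay 3.00 kb inside the upper end, chr1:91844365-91845030, with close folds of 3.57 and 3.62 and no H3K27ac peak in either library. It was the CHD7 region of the Snail and Twist genes with the highest mean fold, 3.59 ± 0.036 (SD, n = 2).

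**Figure D3:**
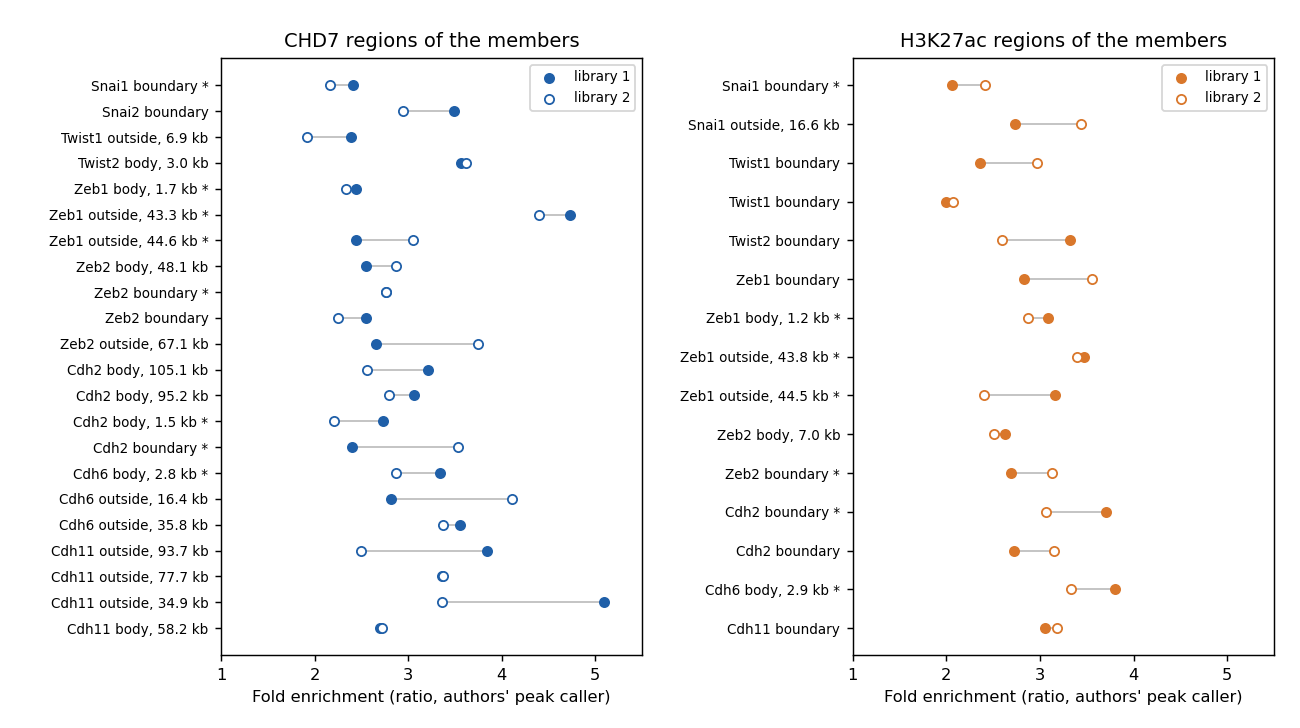
Fold enrichment (ratio, horizontal axis) of each CHD7 region (left) and H3K27ac region (right) of the 10 genes, with filled points for library 1 and open points for library 2. Labels give the class and the distance from the nearer gene end, and a star marks overlap with a region of the other antibody; the Zeb1 region 43.3 kb outside the gene stands highest in library 2, and the Cdh11 region 34.9 kb outside stands highest in library 1 with a wide gap between libraries.

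Zeb1 had the strongest CHD7 region of the 10 genes and the most H3K27ac regions. Zeb1 and Zeb2 are repressors with zinc fingers and a homeodomain. The region chr18:5818790-5819737 lay 43.3 kb beyond the upper end of Zeb1 (chr18:5591327-5775468), with CHD7 folds of 4.73 and 4.40 and a mean fold at or above 87.3% of CHD7 regions. It was the 1 region of either mark with a −log10 q over 10 in both libraries, at 12.95 and 12.68. H3K27ac overlapped it at chr18:5819243-5819734, with folds of 3.47 and 3.39. A second pair followed at once, CHD7 at chr18:5820037-5820605 (folds 2.44 and 3.05) and H3K27ac at chr18:5819928-5820766 (folds 3.15 and 2.40).

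At the lower end of Zeb1, H3K27ac covered the gene end at chr18:5591151-5591575, with folds of 2.83 and 3.56. The region also overlapped the gene Gm10125. CHD7 had a peak there in library 2 (fold 3.20) and none in library 1, so no CHD7 region of both libraries lay at a Zeb1 boundary. Further inside, 1.70 kb from that end, CHD7 at chr18:5593029-5593530 (folds 2.44 and 2.34) overlapped H3K27ac at chr18:5592519-5593369 (folds 3.08 and 2.87). All 3 CHD7 regions of Zeb1 thus overlapped H3K27ac. At least 3 CHD7 regions were found at 8.6% of all genes, and at least 4 H3K27ac regions, as at Zeb1, at 2.34%. The stretch from which Zeb1 could receive a region was 384 kb, against a median of 45.8 kb over all genes.

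Zeb2 carried 4 CHD7 regions, a number reached by 3.56% of all genes, and Cdh2 and Cdh11 had as many. These shares take no account of length. Zeb2, Cdh2 and Cdh11 could receive regions from 262, 420 and 353 kb, against a median of 45.8 kb over all genes. At Zeb2 (chr2:44983512-45117442, minus strand), the region chr2:45117299-45117878 covered the outermost start, with folds of 2.55 and 2.25, and no H3K27ac peak of either library overlapped it. A neighbouring region 497 bp inside the gene, chr2:45116409-45116945, had equal CHD7 folds of 2.76 and 2.77 and overlapped H3K27ac at chr2:45116500-45116985 (folds 2.69 and 3.12). A separate H3K27ac region, chr2:45109335-45110451 (folds 2.63 and 2.51), overlapped an inner listed start and held no CHD7 peak. Zeb2 has 4 listed starts, and the middle ones had neither mark within 1 kb.

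The other CHD7 regions of Zeb2 had H3K27ac in 1 library each. Deep in the body, chr2:45031596-45032441 had CHD7 folds of 2.55 and 2.87 and an H3K27ac peak in library 2 (fold 2.82). Outside the gene, 67.1 kb from its upper end, chr2:45184587-45185553 had CHD7 folds of 2.65 and 3.75 and an H3K27ac peak in library 1 (fold 3.71). Beyond that end the next protein-coding gene, Acvr2a, is 3697 kb away. With genes of every type competing as the nearest, Zeb2 kept 3 of its 4 CHD7 regions.

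Cdh1 (chr8:106603350-106670247) was the 1 gene of the 10 with no CHD7 and no H3K27ac region of both libraries. It encodes E-cadherin, the junction protein that Snail and Zeb repress, and had no H3K27ac peak in either library. CHD7 library 1 held a peak 32.5 kb inside the gene (fold 2.64), and library 2 another 382 bp inside the lower end (fold 2.57). The nearest strong signals belonged to a neighbour: at Tango6, 12.9 kb above Cdh1, CHD7 folds were 5.86 and 4.78 and H3K27ac folds 9.06 and 8.11. Cdh3, the cadherin gene below it, had both marks at a boundary, with CHD7 folds of 2.66 and 2.75.

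Cdh2 (chr18:16588877-16809246) carried both marks inside its upper end. The H3K27ac region chr18:16807217-16808490 had folds of 3.70 and 3.07, and it covered a whole CHD7 region and part of another. The CHD7 region nearer to the end, chr18:16807986-16808465, had unequal folds of 2.40 and 3.53, and the other, chr18:16806887-16807789, had folds of 2.73 and 2.21 from peaks that shared 70 bp. A further H3K27ac region 148 bp from the end (chr18:16808709-16809098, folds 2.73 and 3.15) held no CHD7 peak. In the gene body, 105.1 and 95.2 kb from that end, CHD7 had folds of 3.21 and 2.56 at chr18:16703545-16704106 and of 3.06 and 2.80 at chr18:16713133-16714009. Neither overlapped an H3K27ac region, and H3K27ac library 1 held a peak over the latter (fold 2.40).

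Cdh6 (chr15:13028699-13176407, minus strand) had both marks at its listed start, although that start lies 2.73 kb inside the annotated upper end and the region therefore counts to the body. CHD7 at chr15:13172976-13173599 ended 76 bp from the start, with folds of 3.33 and 2.87. H3K27ac at chr15:13172794-13173533 had folds of 3.80 and 3.33, the highest mean among the H3K27ac regions of the 10 genes, 3.57 ± 0.33 (SD, n = 2). Outside the gene, CHD7 lay 16.4 kb from the upper end (chr15:13192828-13193279, folds 2.82 and 4.11, without H3K27ac) and 35.8 kb from it (chr15:13212202-13213117, folds 3.56 and 3.37). H3K27ac library 1 held a peak over the latter, with a fold of 2.44.

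Cdh11 (chr8:102632095-102785493) had its CHD7 regions apart from its H3K27ac region. H3K27ac lay 539 bp inside the upper end, in the widest region of the 10 genes at 1813 bp (chr8:102783142-102784954, folds 3.06 and 3.18). CHD7 library 1 had a weak peak over it (fold 2.00) and another 528 bp beyond the lower end (fold 2.24), and library 2 had neither. The CHD7 regions were 1 in the body (chr8:102726511-102727257, folds 2.70 and 2.72) and 3 beyond the lower end, at 34.9, 77.7 and 93.7 kb. The nearest of these, chr8:102596273-102597161, had folds of 5.09 and 3.36, a mean of 4.23 ± 1.2 (SD, n = 2), and no H3K27ac in either library. The region at 77.7 kb (folds 3.36 and 3.37) was met by H3K27ac peaks of library 1, and that at 93.7 kb (folds 3.84 and 2.49) by none.

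Where both libraries were required, CHD7 and H3K27ac coincided at a minority of the CHD7 regions of these genes. Of the 22 CHD7 regions, 8 overlapped an H3K27ac region of both libraries (36.4%), against 60.4% of all CHD7 regions. At boundaries this was 3 of 5 against 80.4%, and elsewhere 5 of 17 against 39.5%. With an H3K27ac peak of either library, 15 of the 22 overlapped (68.2%), against 70.4% of all CHD7 regions, which is near the background. In the other direction, 7 of 15 H3K27ac regions overlapped a CHD7 region (46.7%), against 66.8% of all; at boundaries this was 3 of 9 against 72% and elsewhere 4 of 6 against 57.7%. With a CHD7 peak of either library it was 12 of 15, against 84.9%. The differences were not tested, since the regions of a gene share their libraries and the genes were chosen with results of these data known. The 7 CHD7 regions without any H3K27ac peak were those of the Twist2 body, the Zeb2 start, the Cdh2 body at 105.1 kb, Cdh6 at 16.4 kb, and Cdh11 in the body and at 34.9 and 93.7 kb.

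The boundary counts of CHD7 moved with the requirement of both libraries. With library 1 alone, 7 of the 10 genes had a CHD7 peak at a boundary, against 51.1% of all genes, and with library 2 alone also 7, against 49.1%. The genes were not the same: Twist1 and Cdh11 had a boundary peak in library 1, Zeb1 and Cdh1 in library 2. A peak of either library was found at 9 of the 10, all but Cdh6, against 55.1%. For H3K27ac, library 1 had peaks at 8 boundaries and library 2 at 7, against 51.3% and 49.8%, and either library at 8, against 53.3%. Of all CHD7 peaks at the 10 genes, 24 of 40 in library 1 (60%) and 22 of 30 in library 2 (73.3%) belonged to regions of both, near the 65.1% and 76.6% of all CHD7 peaks. The corresponding H3K27ac counts were 15 of 28 (53.6%) and 17 of 19 (89.5%), against 75.8% and 81.3% of all H3K27ac peaks. The share in H3K27ac library 1 was thus below that of all peaks, and the difference was not tested.

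Other genes of the programme were read from lists of related genes. The dimer partners and other crest transcription factors had CHD7 at a boundary of 7 of 15 genes (46.7%), near the 44.2% of all genes, and H3K27ac at 5 (33.3%), below the 47.6% of all genes. Tcf3, an E protein that pairs with Twist (CHD7 folds 4.78 and 5.68), Ets1 (3.75 and 3.75), Tcf12 (3.24 and 3.30) and Sox5 (2.38 and 3.25) had the highest CHD7 folds. The 8 genes without CHD7 at a boundary included Foxd3, Hand2 and Id3, of which Foxd3 had 2 and Id3 3 CHD7 regions elsewhere and Hand2 had 0. Further cadherins had both marks at a boundary of 4 of 15 genes (26.7%), below both shares of all genes. These were Cdh24 (CHD7 folds 4.06 and 5.19), Cdh22, Cdh4 and Cdh3. Cdh10, Cdh12 and Cdh13 were among the 11 with neither mark at a boundary. Catenins, which link cadherins to actin, had both marks at 6 of 7, with Ctnnd1 as the exception; Ctnnb1 had CHD7 folds of 3.71 and 3.83 and Jup of 4.31 and 3.64. A region at a boundary can also lie at a neighbouring gene.

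Most genes that act with the Snail and Zeb proteins carried both marks at a boundary. Their corepressors and partners had CHD7 at 12 of 14 boundaries and H3K27ac at 13, led by the histone deacetylase Hdac2 (CHD7 folds 6.66 and 5.72), the arginine methyltransferase Prmt5 (5.71 and 5.18), the corepressor Ctbp1 (5.33 and 5.03) and the Polycomb subunit Suz12 (5.81 and 4.05). Kdm1a and Sin3a had no CHD7 there. Genes listed for Snail protein stability had CHD7 at 7 of 8 and H3K27ac at 8, with Fbxw7 at 4.50 and 4.02. Both counts include Ppa2 (4.54 and 6.05), which encodes a pyrophosphatase and not a known regulator of Snail. Motility, protease and mesenchymal genes had CHD7 at 15 of 16 and H3K27ac at 14, with Adam19 as the exception for CHD7. The highest CHD7 folds were those of the integrin gene Itgb1 (5.10 and 5.51), Twsg1 (4.996 and 5.27), the small GTPase gene Cdc42 (3.75 and 5.13) and the matrix protease gene Mmp2 (4.47 and 3.98). Both counts include Twsg1, which encodes a secreted BMP-binding protein rather than a motility factor or protease. All of these lists stood above the 44.2% and 47.6% of all genes, and the differences were not tested.

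Few epithelial genes carried H3K27ac at a boundary. Of 18 epithelial junction and splicing genes, 6 had CHD7 (33.3%, against 44.2% of all genes) and 2 had H3K27ac at a boundary (11.1%, against 47.6%), with 1 gene, Grhl2, in both. Over boundary, body and flanks, 8 of the 18 had CHD7 and 5 had H3K27ac, against 55.6% and 56.6% of all genes. At a boundary, Epcam (CHD7 folds 4.02 and 3.77), Ocln (2.71 and 3.22), Ovol2 (2.96 and 2.24) and Cldn7 (2.35 and 2.59) had CHD7 alone. Epcam had 2 H3K27ac regions elsewhere. Cldn3, Cldn4 and Cldn6 had no region of either mark in any of these places. None of the 6 miRNA genes of the miR-200 family and miR-205, which repress Zeb1 and Zeb2, had a region within 1 kb. No share over all miRNA genes stands beside this count, so whether it is unusual is not known. Mir200a, Mir200b and Mir429 lie close together on chromosome 4, as do Mir200c and Mir141 on chromosome 6. The closest regions were those near Mir141 and Mir200c, 5.04 and 5.45 kb away for CHD7 (folds 3.26 and 2.72 in libraries 1 and 2). H3K27ac was nearer, 4.79 and 5.20 kb away, with folds of 4.47 and 4.33. At the other miRNA genes the closest region lay at least 21.2 kb away for either mark.

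**Figure D4:**
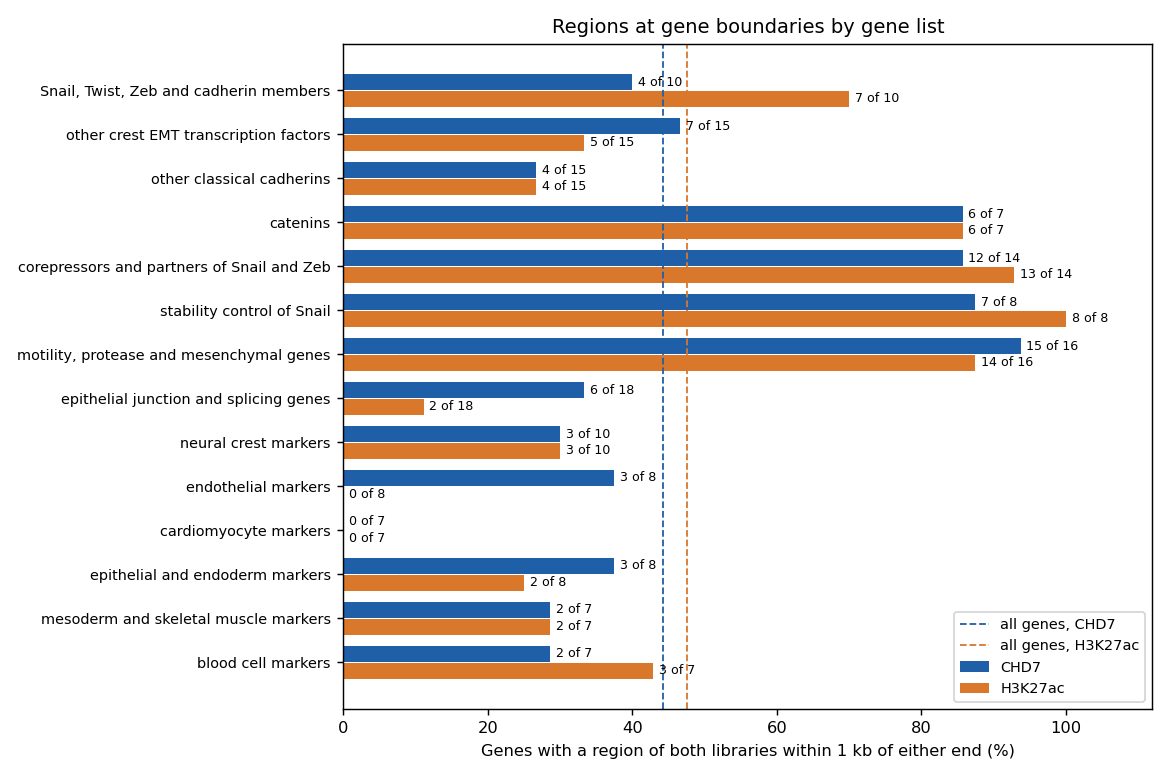
Share of genes (%, horizontal axis) with a CHD7 region (blue) or H3K27ac region (orange) of both libraries within 1 kb of either end, by gene list, with counts beside the bars. Dashed lines are the shares of all protein-coding genes, 44.2% and 47.6%; the 10 genes stand at 4 and 7 of 10.

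The labelled cell type was checked on markers. Of 10 neural crest markers, 3 had CHD7 (Erbb3, Ets1 and Sox9) and 3 had H3K27ac at a boundary, 30% for each mark, below the 44.2% and 47.6% of all genes. Sox10 had no region of either mark. H3K27ac lay at a boundary of 0 of 8 endothelial, 0 of 7 cardiomyocyte, 2 of 8 epithelial and endoderm, 2 of 7 mesoderm and skeletal muscle, and 3 of 7 blood cell markers (42.9%, above the crest markers). CHD7 lay at a boundary of 3, 0, 3, 2 and 2 genes of these lists in the same order. Over boundary, body and flanks, H3K27ac reached 6 of the 10 crest markers, and 3, 0, 5, 3 and 4 genes of the other lists in that order. CHD7 in any of these places reached 8 crest markers, and 4, 1, 5, 3 and 4 genes of the other lists. Of all protein-coding genes, 55.6% had CHD7 and 56.6% had H3K27ac in any of these places. The 6 of 10 crest markers with H3K27ac are near that share. For H3K27ac at a boundary, the crest share was thus below that of the blood cell markers and above the other lists, which reached at most 28.6%. For CHD7 it was below the endothelial and the epithelial and endoderm lists (37.5% each) and above the others. The lists are small, and these differences were not tested. The globin genes Hba-a1 and Hbb-bs and Gata1 had no region of either mark. The part of other cells in the regions of the 10 genes was not tested, and peak lists do not measure expression.

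Zeb1, Zeb2 and Cdh2 held the most regions, 7, 6 and 6 of both marks together. By the number of peaks in CHD7 libraries 1 and 2 and H3K27ac libraries 1 and 2, Zeb1 had 5, 5, 5 and 4, and 5 genes had exactly these numbers, Akap13, Dpysl3 and Eif4g2 being the first by name. Zeb2 and Cdh2 had the same numbers as each other, 7, 5, 3 and 3, and shared them with Exoc6b and Map2k6. These likenesses run over 4 libraries and describe numbers of peaks, not their place or strength.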

How the data were processed

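ChIP-seq of CHD7 and H3K27ac and input chromatin were analysed from peak lists, 1 per library, in 6 libraries. The submitters' processing notes name MACS2 2.1.2, Picard, Bowtie2 2.3.3.1 and bcl2fastq 2.18.0.12, and the mm10 build, without roles or order. The use of input in peak calling was not given in these sources. In the deposited lists, the authors' peak caller gave each peak a fold enrichment (a ratio), a p-value and a q-value as −log10, and an integer score, which was not used. They hold no read counts, so the depth is unknown and no interval was computed.

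Summits of the same interval were joined, keeping the highest fold and q, and peaks on other sequences than chromosomes 1 to 19, X or Y were dropped, leaving 31873 and 26927 for CHD7, 24283 and 22686 for H3K27ac, and 451 and 512 for input. A region was the merged extent of peaks of both libraries that overlapped by at least 1 bp. Genes with misplaced coordinates, starting below 3000000 (500000 on Y), were left out. Starts came from the promoter table where it lists them. Python 3.11.15, numpy 2.4.6 and pandas 2.3.3 were used, and the assignment was tested on made-up peaks.

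No test was run: 2 libraries against 2 cannot give a permutation p below 0.333, and counts stand beside the same counts over all genes or regions. The genes and lists were chosen with earlier results of these data known. All 10 genes are named. Of each related list up to 4 genes with the highest mean CHD7 fold and up to 3 without CHD7, by name, were eligible for naming, and others named were chosen after their values were seen. Lists of 137 genes covered related factors, cadherins, catenins, partners, stability, motility, epithelial genes, miRNAs and cell type markers.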

Additional observations from a re-analysis of the deposited data

How the results depend on the processing

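The counts rest on weak peaks. With peaks of a −log10 q of at least 10, or with the 10000 peaks of lowest q of each library, 0 of the genes had CHD7 and 0 had H3K27ac at a boundary, and 1 CHD7 region, 0 H3K27ac regions and 0 overlaps were left, against 4, 7, 22, 15 and 8. At a −log10 q of at least 10 the CHD7 region left was that of Zeb1. With regions of either library, CHD7 lay at 9 boundaries, and there were 46 CHD7 regions, 30 H3K27ac regions and 20 CHD7 regions over H3K27ac. With every region within 100 kb counted, whichever gene was nearer, 14 CHD7 regions overlapped H3K27ac. With an H3K27ac peak of either library, an alternative chosen after seeing the data, 15 did. Leaving out 1 library in turn gave 4 to 7 genes with CHD7 at a boundary (7 without either CHD7 library), 22 to 40 CHD7 regions (40 without CHD7 replicate 2), 15 to 28 H3K27ac regions (28 without H3K27ac replicate 2) and 9 to 14 overlaps (14 without H3K27ac replicate 2). These follow from the construction, since fewer libraries have to hold the peak. Of the 78 alternatives of the main counts, 57 were within 1.5 times the main count, among them all those on the boundary distance, the distal limit, the overlap, noncoding neighbours and input peaks. Of 150 such counts for single genes, 41 moved by more, among them that of Snai2, from 1 to 0 with an overlap of 50%. No paired analysis was possible because the results are counts of peaks from no test.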
